A study of Mus musculus with 3 samples.

Results

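The costimulatory receptors ICOS, GITR, OX40, 4-1BB and DR3 and their ligands were examined in type 2 innate lymphoid cells (ILC2s) of the mouse lung. The members were chosen by name: the receptor genes Icos, Tnfrsf18, Tnfrsf4, Tnfrsf9 and Tnfrsf25 and the ligand genes Icosl, Tnfsf18, Tnfsf4, Tnfsf9 and Tnfsf15, which make 5 receptor and ligand pairs. All 10 were among the 16129 genes of the deposited table. The only group consists of 3 RNA sequencing libraries of cells sorted by flow cytometry from lung tissue of wild-type mice treated in vivo with the alarmin IL-33. The labels name no strain, age, dose, schedule, antibody or gate. They also do not tie a library to an animal or a pool, so replicate error here may be technical error only. With no untreated library, no effect of IL-33 was measured, and the comparisons are between genes of the same libraries.

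ILC2s have no antigen receptor and respond to alarmins and cytokines, and costimulatory receptors of the CD28 and TNF receptor families tune their survival and cytokine output. ICOS recruits PI3-kinase through its cytoplasmic tail. GITR, OX40 and 4-1BB bind TRAF adaptors and activate NF-kB, and DR3 does so through a death domain and the adaptor TRADD. ICOSL is known to be present on ILC2s themselves as well as on antigen-presenting cells, and OX40L on IL-33-activated ILC2s is known to act on T cells.

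The libraries held 19948056, 19883728 and 19976129 estimated reads in replicates 1, 2 and 3. The labelled cell type was checked against markers. All 11 ILC2 markers were detected, meaning that every library had at least 1 TPM, a transcript level normalised for length and depth, and their summed level was 9046 to 9305 TPM. Among markers of other cells, the macrophage and monocyte list had 9 of 13 listed genes detected. Its sum was 395 to 553 TPM, most of it from Chil3 (375 ± 74.7 TPM). Of the epithelial markers 5 of 8 were detected, with Cdh1 at 23.3 ± 1.02, Scgb1a1 at 15.3 ± 0.980 and Sftpc at 9.40 ± 1.81 TPM. The endothelial list had 2 of 7 detected, led by Pecam1 (79.8 ± 2.76 TPM). Mast cell and basophil markers had 2 of 4, Kit (155 ± 2.40) and Cpa3 (5.32 ± 0.511). The NK and ILC1 list had 1 of 7 detected, and the fibroblast and smooth muscle list 0 of 7. The B cell list had 1 of 8 detected (Cd79b, 21.9 ± 1.82 TPM). The regulatory T cell list had 2 of 4 detected, Ikzf2 (25.2 ± 0.264 TPM) and Ikzf4 (10.5 ± 0.636). Its factor Foxp3 stood at 0.200 ± 0.0917 TPM. Of the dendritic cell markers 8 of 11 were detected (sum 496 to 525 TPM), mostly through Cd74 (234 ± 9.81) and MHC class II genes. Xcr1 (11.7 ± 1.33), Ccr7 (6.15 ± 0.639), Itgax (4.09 ± 1.06) and Zbtb46 (1.87 ± 0.0173) were detected as well. Clec9a, Flt3 and Siglech were not, at 0.0367 ± 0.00577, 0.123 ± 0.0577 and 0.163 ± 0.0723 TPM. Of the alpha-beta T cell markers 4 of 9 were detected (sum 463 to 474 TPM), mostly through Cd3g (416 ± 8.15). The other detected ones were Lef1 (41.2 ± 2.12), Cd3e (7.19 ± 1.57) and Cd3d (1.86 ± 0.504). Among the undetected ones, Cd4 and Cd6 were at 0.0533 ± 0.0208 and 0.200 ± 0.0781 TPM. 

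Of the 10 members, 8 were detected, beside 67.3% of all listed genes. With 10 genes, this share is close to that of the whole profile and is not a result about the members. All 5 receptors passed and 3 of the 5 ligands did. The undetected ligands were Tnfsf18 and Tnfsf15. At 0.5 TPM 9 members passed (71% of all genes) and at 5 TPM 7 did (57.6%). The count stayed at 8 with FPKM of at least 1 (63.5% of all genes), with the lower bound of the Poisson interval (65.4%), and without replicate 1 (67.7%), 2 (67.7%) or 3 (67.6%). Both partners reached 1 TPM in every library for 3 of the 5 pairs, namely Icos with Icosl, Tnfrsf4 with Tnfsf4, and Tnfrsf9 with Tnfsf9. In the other pairs the receptor was detected and its ligand was not. Since these are bulk libraries, a transcript present in few cells and one present at a low level in many cannot be told apart, and receptor and ligand detected together need not be in the same cell.

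**Figure D1:**
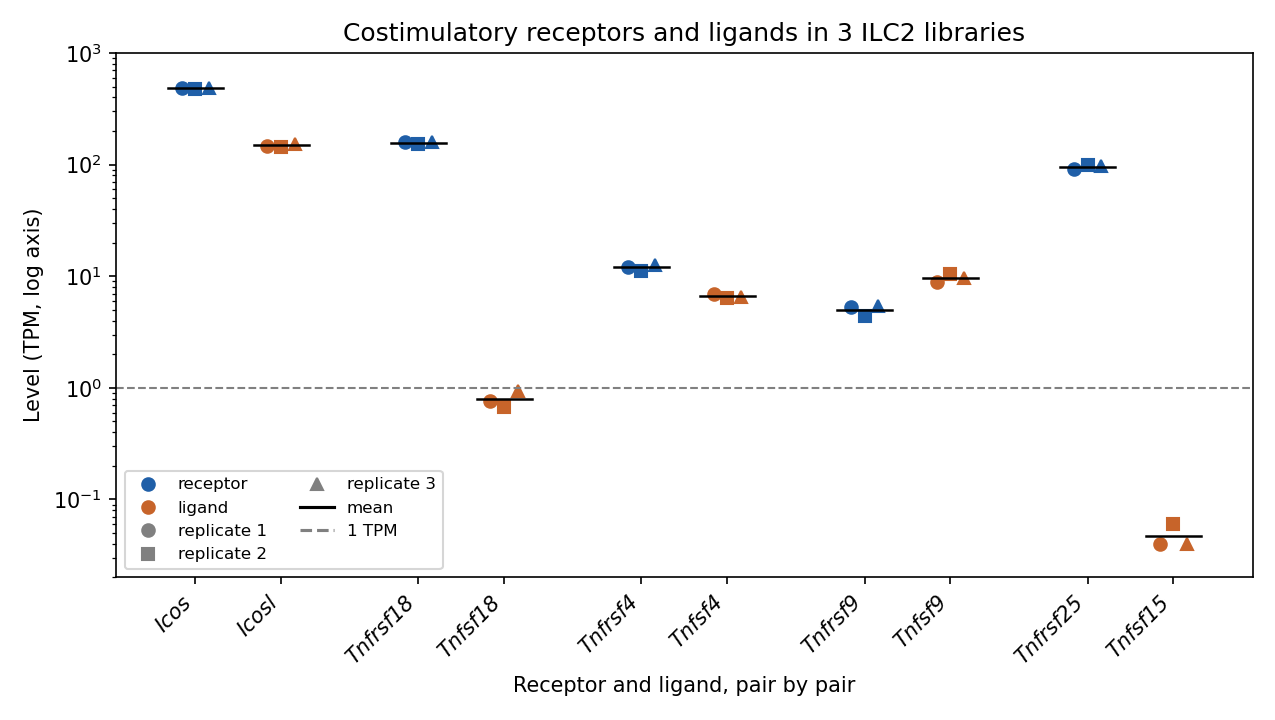
TPM (log axis) of each receptor (blue) and its ligand (orange) in the 3 libraries, with the mean as a bar and a dashed line at 1 TPM. Icos is highest at a mean of 484 TPM, and Tnfsf18 and Tnfsf15 are the members below 1 TPM.

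Among the receptors, Icos was the highest. Icos was at 489.8, 474.8 and 486.7 TPM in replicates 1, 2 and 3 (484 ± 7.94, mean ± SD, n = 3), and took place 261 of the 16129 listed genes by mean. Tnfrsf18, which encodes GITR, a receptor known from regulatory and activated T cells, was at 160.2, 153.1 and 158.7 TPM (157 ± 3.74). Tnfrsf25, which encodes DR3, a death domain receptor that costimulates type 2 lymphocytes, was at 91.3, 98.6 and 96.7 TPM (95.5 ± 3.83). The 3 libraries lay close together for each of these receptors, and no value of one overlapped a value of another.

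The remaining receptors were much lower. Tnfrsf4 (OX40, a TRAF-binding receptor induced on activated T cells) was at 12.1, 11.2 and 12.7 TPM (12.02 ± 0.750), close to the median of all listed genes, 11.2 TPM. Tnfrsf9 (4-1BB, also known as CD137) was at 5.26, 4.42 and 5.38 TPM (5.02 ± 0.523), below that median. These values rest on 120 to 137 estimated reads per library for Tnfrsf4 and 85.9 to 105 for Tnfrsf9, against 14488 to 15143 for Icos. For Tnfrsf9 in replicate 2, the lowest of these values, the exact Poisson 95% interval ran from 3.54 to 5.46 TPM. Such intervals cover counting error only.

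Ligands covered a wider range. Icosl, the B7 family ligand of ICOS, was at 148.2, 144.3 and 153.4 TPM (149 ± 4.57). It carried 89.7 ± 0.431% of the summed TPM of the 5 ligands. Tnfsf9 (4-1BBL) was at 8.87, 10.4 and 9.68 TPM (9.64 ± 0.751), and Tnfsf4 (OX40L, through which ILC2s are known to engage T cells) was at 6.91, 6.40 and 6.55 TPM (6.62 ± 0.262). Each of the latter had between 95 and 117 estimated reads per library.

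The ligands of GITR and DR3 were low in every library. Tnfsf18 (GITRL) was at 0.760, 0.680 and 0.940 TPM, from 14.8, 13 and 18 estimated reads. The upper bound of its Poisson 95% interval was 1.26, 1.16 and 1.49 TPM, so a level of 1 TPM lies within counting error in each library. Tnfsf15 (TL1A, a ligand known from myeloid, endothelial and epithelial cells) was at 0.0400, 0.0600 and 0.0400 TPM, from 2.13, 3.30 and 2.03 estimated reads, with upper bounds of 0.140, 0.168 and 0.143 TPM. Tnfsf18 is therefore close to the detection level and Tnfsf15 well under it at this depth.

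In order of mean level, the members ran Icos, Tnfrsf18, Icosl, Tnfrsf25, Tnfrsf4, Tnfsf9, Tnfsf4, Tnfrsf9, Tnfsf18 and Tnfsf15. Of the neighbours in this order, only Tnfrsf18 and Icosl had overlapping values, from 153.1 to 160.2 and from 144.3 to 153.4 TPM. When counts were instead divided by the length of the longest annotated transcript, these neighbours changed places, with Icosl at 178 to 189 and Tnfrsf18 at 162 to 170 on a scale with the same total as TPM. Between Tnfrsf25 and Tnfrsf4 the mean dropped 7.95-fold, which separated 4 members at or above 91.3 TPM from 6 members at or below 12.7 TPM in every library. The summed TPM of the 5 receptors was 754 ± 10.0 and that of the ligands 166 ± 4.48, so receptors made up 82.0 ± 0.266% of the total. Icos and Icosl together held 68.8 ± 0.304% of the TPM of all 10 members.

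The question for each pair was whether receptor or ligand transcripts were more abundant in the same library. Differences are receptor minus ligand on the log2(TPM + 1) scale, which understates ratios of low genes. Icos exceeded Icosl by 1.7 ± 0.0322, and the TPM ratio was 3.31, 3.29 and 3.17 in replicates 1, 2 and 3. Tnfrsf4 exceeded Tnfsf4 by 0.77 ± 0.0776, with TPM ratios of 1.75, 1.75 and 1.94. The pair of 4-1BB went the other way: Tnfrsf9 lay below Tnfsf9 by a log2 difference of -0.82 ± 0.217, with the ligand at 1.92 times the receptor by mean TPM. In each of these 3 pairs the direction was the same in 3 of 3 libraries and the difference exceeded its SD.

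The pairs with an undetected ligand differed most. Tnfrsf18 exceeded Tnfsf18 by 6.47 ± 0.0896 on the log2(TPM + 1) scale, and the ratio of mean TPM was 198 (exact binomial 95% interval from the pooled reads 148 to 269.9). Tnfrsf25 exceeded Tnfsf15 by 6.53 ± 0.0481 on that scale, where the added 1 TPM sets the size because the ligand is near 0. Its ratio of mean TPM, 2047, rests on 7.46 pooled ligand reads and had an interval of 1058 to 5429. For all 5 pairs, exact permutation of the signs of the 3 library differences (two-sided) gave p = 0.25, the smallest it can give, and p = 0.25 after Benjamini-Hochberg adjustment over the 5 pairs. The test therefore cannot separate any pair at this number of libraries.

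**Figure D2:**
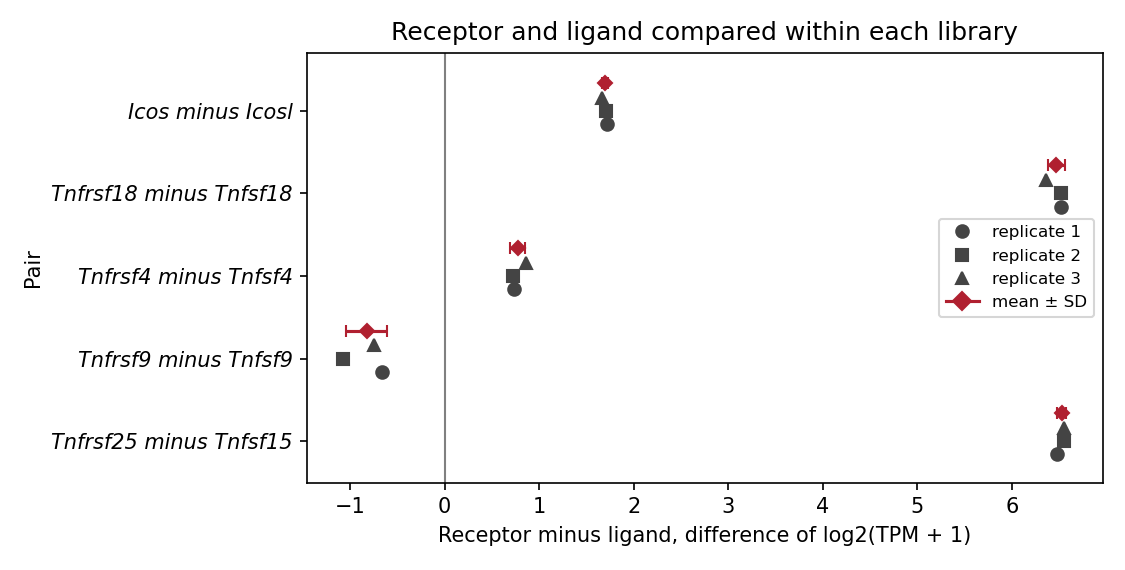
Receptor minus ligand as a difference of log2(TPM + 1) for each of the 5 pairs, with 1 point per library and the mean ± SD as a red diamond. The Tnfrsf9 and Tnfsf9 pair lies below 0 at -0.82, and the others lie between 0.77 and 6.53.

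Within their gene families, several members stood at the top. Of 25 listed TNF receptor superfamily genes 19 were detected, beside 67.3% of all listed genes. Tnfrsf18 was the highest of the 25 and held 24.2 ± 0.749% of their summed TPM. Tnfrsf1b (TNF receptor 2) came next at 108 ± 4.59 TPM, followed by Tnfrsf25, Tnfrsf8 (CD30, 67.2 ± 4.0) and Cd27 (40.5 ± 1.14). Tnfrsf4 and Tnfrsf9 took places 11 and 14. Thus the 4 TNF receptors among the members span the upper and the middle part of the family. Family genes below 1 TPM included Cd40 at 0.333 ± 0.0709 TPM.

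The ligand members ranked lower in their family. Of 17 listed TNF ligand superfamily genes 12 were detected, a share close to the 67.3% of all listed genes. Tnfsf9 and Tnfsf4 took places 8 and 9 while Tnfsf18 and Tnfsf15 took places 14 and 17. The family was led by Ltb (921 ± 14.7 TPM), which encodes lymphotoxin beta and alone held 63.1 ± 0.699% of its TPM, and by Tnfsf14 (LIGHT, 191 ± 8.82) and Tnfsf10 (TRAIL, 147 ± 5.14). Tnfrsf14 and Tnfrsf8, receptor genes that are partners of Tnfsf14 and Tnfsf8, were at 39.7 ± 0.970 and 67.2 ± 4.0 TPM, and Tnfsf8 at 36.9 ± 1.19. Other family pairs had partners that were not detected. Ltbr, the receptor of lymphotoxin beta, was at 0.490 ± 0.108 TPM. In the CD40 pair neither partner was detected, with the ligand Cd40lg at 0.843 ± 0.274 TPM and Cd40 at 0.333 ± 0.0709.

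Icos and Icosl differed in how they stood among their relatives. In the CD28 family Icos was near Pdcd1 (PD-1, 493 ± 8.32 TPM), and their values overlapped. Ctla4, the inhibitory relative, was at 363 ± 28.5 TPM, whereas Cd28 itself was at 1.33 ± 0.241 TPM. Icosl was the highest of 6 listed B7 family genes and held 67.4 ± 0.106% of their TPM. Cd80 and Cd86, the ligands of CD28, were at 2.80 ± 0.340 and 1.91 ± 0.216 TPM, and Vsir (VISTA) and Cd274 (PD-L1) at 26.4 ± 1.02 and 23.0 ± 0.566. The ICOS pair was therefore at a far higher transcript level than the CD28 pair on the receptor and on the ligand side.

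**Figure D3:**
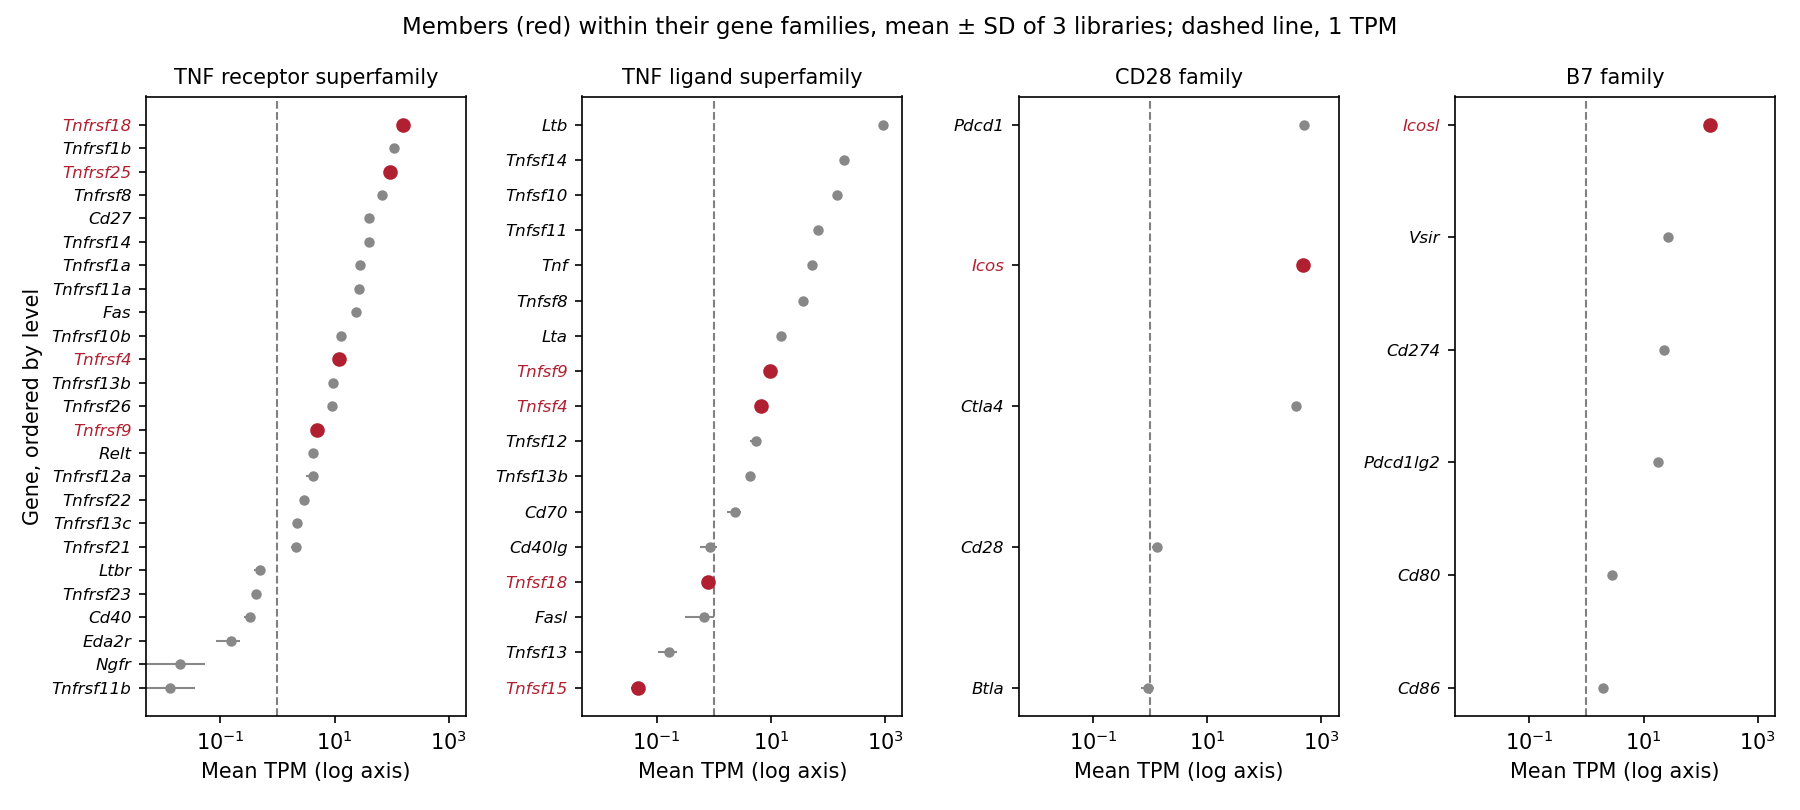
Mean TPM ± SD (n = 3, log axis) of the listed genes of 4 families, with members in red and a dashed line at 1 TPM; error bars that would pass the left edge are clipped there. Tnfrsf18 and Icosl lead their families, and Tnfsf15 is the last of 17 TNF ligands.

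Across these families, the gene nearest in mean log2(TPM + 1) over the 3 libraries was named for each member, as a description of level and nothing more. For Icos it was Pdcd1, with a difference of -0.03, and for Icosl it was Tnfsf10, with a difference of 0.02. Tnfrsf18 was also nearest to Tnfsf10 (0.10), and Tnfrsf25 to Tnfrsf1b (-0.17). Those 2 nearest genes did not overlap the member's own values. Tnfrsf4 was nearest to Tnfrsf10b (-0.11), Tnfsf9 to Tnfrsf13b (0.04), Tnfrsf9 to Tnfsf12 (-0.08) and Tnfsf18 to Cd40lg (-0.03), each with overlapping values. The remaining matches were Tnfsf12 for Tnfsf4 (0.26, without overlap) and Ngfr for Tnfsf15 (0.04). Ngfr itself was listed at 0 in 2 of the 3 libraries.

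The spread of the members over libraries was small. The coefficient of variation of TPM was 1.64% for Icos, 2.38% for Tnfrsf18, 3.08% for Icosl and 4.01% for Tnfrsf25. It rose to 10.4% for Tnfrsf9 and 24.7% for Tnfsf15, the member with the fewest reads. Set against the SD that counting alone gives, the SD of depth-scaled counts was 2.51 times as large for Icos and 1.71 times for Icosl. It was 1.04 times for Tnfrsf9, and lower for Tnfrsf4 (0.730), Tnfsf9 (0.734), Tnfsf18 (0.641), Tnfsf4 (0.466) and Tnfsf15 (0.452). Over 11274 genes with a mean of 20 or more counts, the median of this ratio was 1.16 and its quartiles were 0.734 and 1.71. The abundant Icos thus varied more than counting error but by little in relative terms. For 5 of the 6 members at or below 12.7 TPM, the SD was below that of counting alone. An SD from 3 libraries often falls below that value when only counting error is present. These members are therefore not shown to vary less than counting gives.

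Replicate 3 had more macrophage transcripts than the others, so each member was compared in the same way. Over the 9 macrophage and monocyte markers with a mean of 1 TPM or more, replicate 3 divided by the mean of replicates 1 and 2 had a median of 1.40 (1.29 to 1.59), and 9 of 9 were highest in replicate 3. The same ratio was 1.01 for Icos, 1.01 for Tnfrsf18, 1.02 for Tnfrsf25 and 1.05 for Icosl. Tnfrsf4 and Tnfrsf9 had 1.09 and 1.11, and Tnfsf9 and Tnfsf4 1.01 and 0.984. Tnfsf18 had a ratio of 1.31, on 13 to 18 reads. In other lists the markers with a mean of 1 TPM or more went both ways. Dendritic cell markers had a median ratio of 1.02 (0.867 to 1.51, highest for Itgax). Alpha-beta T cell markers had 1.06 (0.961 to 1.43, highest for Cd3e), and epithelial markers 0.949 (0.703 to 1). The part of other cells in the members' reads was not tested. Without replicate 3, the same 8 members and 3 pairs were detected.

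**Figure D4:**
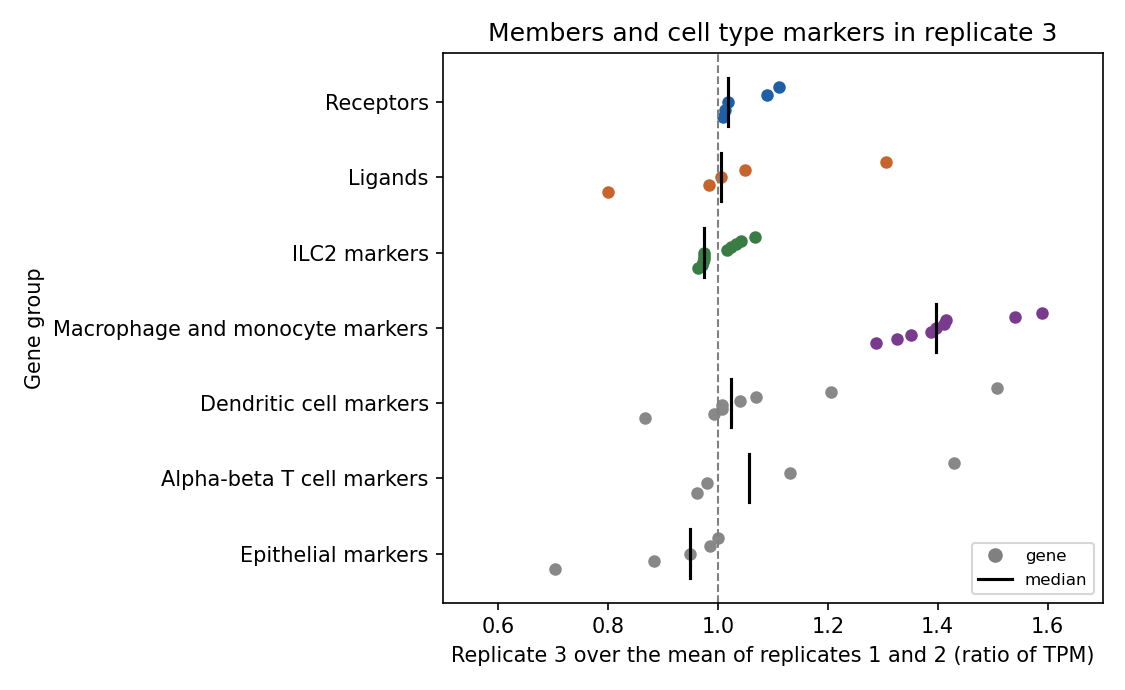
Replicate 3 divided by the mean of replicates 1 and 2 (ratio of TPM) for the receptors, the ligands and markers of at least 1 TPM, with 1 point per gene and the median as a bar. Macrophage markers sit at 1.29 to 1.59, and receptors at 1.01 to 1.11.

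Several members lie next to relatives in the genome (RefSeq annotation of GRCm38.p6), and the levels of such neighbours were compared. Icos (chr1:60960773-61000322) lies 44.9 kb from Ctla4 and beyond it Cd28, and Icos and Ctla4 were at 484 ± 7.94 and 363 ± 28.5 TPM while Cd28 was at 1.33 ± 0.241. Tnfrsf4 (chr4:156013595-156016613) and Tnfrsf18 (chr4:156026322-156028894) are 9.71 kb apart with no other protein-coding gene between them, and Tnfrsf18 was 13.1 times as high. The annotated start of Tnfrsf4 overlaps the end of Sdf4 (369.96 ± 7.20 TPM) by 16 bases, and reads in that overlap cannot be assigned with certainty. Tnfrsf9 (chr4:150920155-150946104) and Tnfrsf25 (chr4:152115528-152120119) are on the same chromosome but are not neighbours. They are 1169 kb apart with 14 protein-coding genes between them.

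Ligand genes were arranged likewise. Tnfsf4 (chr1:161395438-161418206) and Tnfsf18 (chr1:161494657-161505290) are 76.5 kb apart, and Tnfsf4 was 8.34 times as high. Tnfsf15 (chr4:63724600-63745059) lies 86.1 kb from Tnfsf8, which was at 36.9 ± 1.19 TPM. Tnfsf9 (chr17:57105287-57107758) is followed by Cd70 (2.38 ± 0.640 TPM) at 38.2 kb and then by Tnfsf14. Icosl is at chr10:78069368-78079525. Adjacent family genes thus often differed severalfold in level within the same libraries, with Icos and Ctla4 (1.33-fold) the closest of the adjacent pairs that were both detected.

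Promoter windows of 7 of the 10 members were found in RefSeq (GRCm38.p6). The 250 bases upstream of the annotated start are printed for the highest receptor and ligand among these, for the undetected ligands, and for the internal start of Tnfrsf9, which held the most motif matches. They are given 5′ to 3′ on the gene's strand, with motif matches in capitals. The motifs searched on both strands were the NF-kB consensus, the AP-1 site TGANTCA, the letters GATAA bound by GATA factors, and TATAAA.
Tnfrsf18, chr4:156026072-156026321, plus strand: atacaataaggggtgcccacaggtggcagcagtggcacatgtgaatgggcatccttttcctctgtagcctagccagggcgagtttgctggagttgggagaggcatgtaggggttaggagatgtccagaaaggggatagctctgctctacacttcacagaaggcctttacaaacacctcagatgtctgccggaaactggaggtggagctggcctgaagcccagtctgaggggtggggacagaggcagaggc
Icosl, chr10:78069118-78069367, plus strand: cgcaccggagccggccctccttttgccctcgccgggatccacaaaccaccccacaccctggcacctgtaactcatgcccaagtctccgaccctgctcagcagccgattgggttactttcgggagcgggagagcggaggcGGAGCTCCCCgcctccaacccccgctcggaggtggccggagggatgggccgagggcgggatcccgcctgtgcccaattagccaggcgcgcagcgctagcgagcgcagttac
Tnfrsf9, chr4:150927749-150927998, plus strand: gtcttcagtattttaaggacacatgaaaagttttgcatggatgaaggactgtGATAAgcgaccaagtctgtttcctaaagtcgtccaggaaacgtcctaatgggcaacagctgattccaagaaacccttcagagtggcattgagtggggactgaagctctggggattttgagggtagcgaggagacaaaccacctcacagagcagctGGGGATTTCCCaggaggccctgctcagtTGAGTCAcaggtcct
Tnfsf18, chr1:161494407-161494656, plus strand: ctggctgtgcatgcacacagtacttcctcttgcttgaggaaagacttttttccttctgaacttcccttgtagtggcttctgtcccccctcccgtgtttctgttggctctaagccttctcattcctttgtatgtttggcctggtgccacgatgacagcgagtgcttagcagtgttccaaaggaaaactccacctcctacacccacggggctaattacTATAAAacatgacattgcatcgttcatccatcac
Tnfsf15, chr4:63745060-63745309, minus strand: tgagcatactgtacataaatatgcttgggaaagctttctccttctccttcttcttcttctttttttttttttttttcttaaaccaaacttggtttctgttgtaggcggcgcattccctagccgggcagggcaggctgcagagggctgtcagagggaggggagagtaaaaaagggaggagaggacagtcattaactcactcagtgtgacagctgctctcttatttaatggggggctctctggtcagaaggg

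The windows differed in base composition. Icosl had 68.8% G and C and 23 CpG dinucleotides, more CpG than 86.7% of the 32851 windows of all genes. Tnfrsf18 had 56.0% G and C but 2 CpG, and the undetected ligands Tnfsf18 and Tnfsf15 had 48.4% and 46.8% with 5 and 3 CpG. The median over all windows was 52.4% and 6 CpG. Tnfrsf18 and Icosl, whose TPM values overlapped, thus had 2 and 23 CpG. A link between CpG content and level was not tested.

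Motif matches were few. An NF-kB match was present in 3 of the members' 9 windows, namely those of Icosl, the downstream start of Tnfrsf25 and the internal start of Tnfrsf9, against 7.25% of all windows. The upstream windows of Tnfrsf25 and Tnfrsf9 held none. In Tnfrsf9 the capitals starting 43 bases before the start are overlapping NF-kB matches, and the same window holds an AP-1 match and a GATA match, motifs found in 6.75% and 22.6% of all windows. Tnfsf18 has a TATA match from 34 to 29 bases before its start, a motif in 12.4% of windows. Tnfrsf18, Tnfrsf4 and Tnfsf15 held none of the 4 motifs in these 250 bases. A match is a description of letters and not evidence of binding.

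The deposited FPKM and counts also imply an effective transcript length for each gene. For Icos it was 3206 to 3208 bases, close to the 3241-base transcript of the GENCODE M21 annotation and far from its 810-base one, in each of the 3 libraries. Icosl gave 2699 bases beside a longest transcript of 2814, and Tnfrsf25 gave 1642 to 1655 beside coding transcripts of 1661 and 1603. Tnfrsf18 gave 979 to 981, below its coding transcripts of 1189 and 1078 bases and above the one of 804, and Tnfsf4 gave 1561 beside 1842. Tnfrsf4 and Tnfsf15 instead gave 1118 to 1134 and 5081 to 5532 bases, longer than their longest GENCODE transcripts of 1090 and 3347. For Tnfsf15 the FPKM is only 0.02 or 0.03, so its rounding limits the estimate. Which annotation the authors counted on is not stated in the labels or headers, so these lengths describe the model behind the TPM values and do not identify isoforms.

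Genes that carry the signals of these receptors were then described. All 13 listed TRAF and ubiquitin genes were detected, beside 67.3% of all listed genes. Their median was 60.3 TPM, beside 11.2 TPM over all listed genes and 28.2 TPM over the detected ones. Traf1, an adaptor of GITR and 4-1BB known as an NF-kB target, was at 109 ± 4.35 TPM, Birc3 (cIAP2) at 99.9 ± 2.72 and Traf2 at 60.3 ± 2.11. Traf5, which OX40 and GITR also use, was the lowest of the list at 4.57 ± 0.570. The death domain list of DR3 had 14 of 14 detected (median 63.1 TPM). Tnfaip3 (A20, a brake on NF-kB) was highest there at 807 ± 68.1, and the adaptor Tradd stood at 51.4 ± 1.60. In mean TPM, Traf1, Birc3, Traf2 and Tradd lay between Tnfrsf18 and Tnfrsf4.

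NF-kB and PI3-kinase genes were detected nearly in full. All 12 IKK and NF-kB genes passed (median 62.1 TPM), beside 67.3% of all listed genes. They were led by Nfkb1 (677 ± 17.6) and Nfkbia (498 ± 26.5). Map3k14, the kinase NIK of the alternative arm, was at 37.6 ± 0.986. Of 16 genes of the ICOS and PI3-kinase list 15 passed (median 47.05 TPM), with Akt1 at 197 ± 6.21, the lymphocyte catalytic subunit Pik3cd at 122 ± 3.23 and the regulatory subunit Pik3r1 at 60.2 ± 2.15. Pik3r3 was the exception at 0.160 ± 0.0557. So the transcripts of the machinery that ICOS uses were present in every library except for that subunit.

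Regulators of the members' transcripts and proteins were detected as well. The 7 mRNA decay genes all passed (median 74.1 TPM), beside 67.3% of all listed genes. Rc3h1 and Rc3h2, the roquins that destabilise Icos and Tnfrsf4 transcripts, were at 23.1 ± 1.05 and 26.0 ± 0.930 TPM, Zc3h12a (regnase-1) at 74.1 ± 2.00, and Zfp36l2 was the highest at 707 ± 19.7. Adam10, a protease known to shed ICOSL, was at 115 ± 2.47 TPM, and Adam17 at 74.1 ± 2.27. Of 7 survival genes 6 were detected, with Bcl2a1d at 305 ± 16.5, Mcl1 at 172 ± 4.68, Bcl2 at 67.2 ± 2.41 and Bcl2l1 at 42.6 ± 1.56. Bcl2a1a, at 3.14, 0.95 and 2.86 TPM, missed the level in replicate 2, and it has near-identical copies among which reads are split with uncertainty. None of these lists was compared between conditions.

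**Figure D5:**
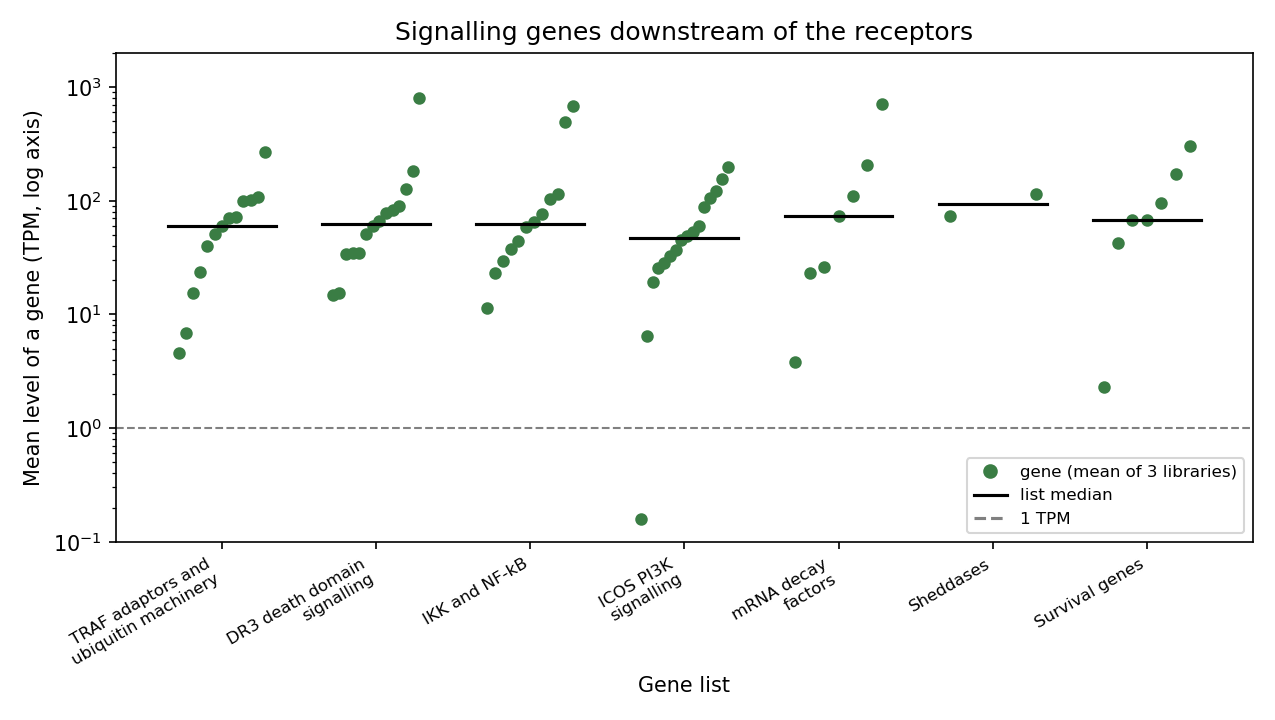
Mean TPM (log axis) of each gene in 7 lists of signalling and regulatory genes, with the list median as a bar and a dashed line at 1 TPM. Medians lie between 47.05 and 94.6 TPM, and Pik3r3 at 0.160 TPM is the point below the dashed line.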

How the data were processed

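Lung ILC2 libraries (1 group, replicates 1 to 3 by title) were profiled by RNA sequencing after tissue digestion and cell sorting, per the labels. Bowtie2, RSEM 1.3.1 and the build GRCm38.p6 are listed, per the submitters' processing notes, without order or settings. The gene annotation used for counting is not named in them. Per the file headers, the authors deposited TPM, FPKM, read counts (expected counts, not all whole) and a depth-scaled signal, the normalised read counts, which was not used. Levels and differences are from TPM, since it is per length. Counts gave exact Poisson 95% intervals and the counting SD. RSEM divides reads among similar genes by estimation, so close copies are uncertain.

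A gene was detected at 1 TPM or more in each library, and log values are log2(TPM + 1). Pairs were compared with the exact sign-flip permutation test. Promoters and coordinates are from RefSeq, and transcript lengths from GENCODE M21, which matched 96.6% of listed genes. Named genes were the members, in each list up to 6 highest and up to 4 below 1 TPM, partners of named family genes, the family gene nearest in level, and up to 4 markers per cell type of at least 5 TPM. Foxp3, Clec9a, Flt3, Cd4, Cd6, Itgax, Traf2, Traf5, Tradd, Map3k14 and Bcl2a1a were named outside this rule, after their values were seen. So were Siglech, Xcr1, Ccr7, Zbtb46 and Cd3d. The members and lists were chosen with earlier results of these data known. The code was tested on simulated data. Alternatives were detection at 0.5 or 5 TPM or by FPKM or the interval's lower bound, a pseudocount of 0.1, annotated lengths, a filter on low values and leaving out each replicate. Python 3.11.15, pandas 2.3.3 and SciPy 1.17.1 were used.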

Additional observations from a re-analysis of the deposited data

How the results depend on the processing

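The number of pairs with both partners detected depended on the TPM threshold. At 0.5 TPM 9 members and 4 pairs passed, since Tnfsf18 then counted, and at 5 TPM 7 members and 2 pairs passed, since Tnfrsf9 was at 4.42 TPM in replicate 2 and its pair was lost. FPKM of at least 1, the lower Poisson bound, and leaving out any replicate each left 8 members and 3 pairs. The direction of all 5 pair differences held under every alternative run. With an added value of 0.1, FPKM or annotated lengths, the Tnfrsf25 and Tnfsf15 difference ran from 5.51 to 9.35 and that of Tnfrsf18 and Tnfsf18 from 5.79 to 7.47, because the ligand is near 0. A filter at 1 TPM removes these 2 pairs. Without each replicate in turn, Tnfrsf9 minus Tnfsf9 ran from -0.91 to -0.70. The order of the members changed in 2 places with annotated lengths, between Tnfrsf18 and Icosl, and in 0 places otherwise. Receptor and ligand were compared within each library. No paired analysis was possible between groups by replicate number, because the libraries form 1 group. Depth limits Tnfsf18 and Tnfsf15, with 18 reads or fewer per library.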
